A study of Mus musculus with 6 samples.

Results

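The 8 genes described here carry the identity of GABAergic interneurons, the inhibitory local neurons of the hippocampus. They were taken by symbol and were Gad1, Gad2, Slc32a1, Pvalb, Calb2, Reln, Lhx6 and Erbb4. Every probe set annotated to a single one of these genes was used, which gave 15 of the 45037 probe sets tested and 8 of the 18193 genes that had a probe set of their own. Gad1, Gad2, Reln and Lhx6 were read by 2 probe sets each, Slc32a1 by 4, and Pvalb, Calb2 and Erbb4 by 1.

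The study compared the hippocampus of mice heterozygous for a p300 deficiency (p300+/-) with that of Wild-type littermates, to learn which transcripts depend on a full dose of this acetyltransferase and transcriptional coactivator. The animals were untreated female C57BL/6 mice, 3 months old. Total RNA was pooled from 4 mice per Affymetrix Mouse Genome 430 2.0 array, with 3 arrays and 12 mice per genotype. How the p300 allele was altered was not learned from the sources at hand, and pooling hides the spread between single mice. Each value is a log2 intensity relative to the probe set's own median over the 6 arrays, so 0 is that median and no absolute level is held.

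Interneurons make up a small share of hippocampal neurons and set the timing and strength of pyramidal cell firing. They make GABA from glutamate with the glutamate decarboxylases encoded by Gad1 and Gad2, and load it into synaptic vesicles through the transporter encoded by Slc32a1. Subtypes are told apart by calcium-binding proteins such as parvalbumin (Pvalb) and calretinin (Calb2), by secreted proteins such as reelin (Reln), and by transcription factors such as Lhx6, which marks cells born in the medial ganglionic eminence. In tissue RNA, fewer cells of a type and less RNA per cell cannot be told apart.

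The labels were checked on Ep300, the gene of p300 itself, which was at -0.26, -0.22 and -0.50 in p300+/- 1, 2 and 3 and at 0.22, 0.38 and 0.40 in Wild-type 1, 2 and 3. The p300+/- arrays thus lay below the Wild-type arrays, at a log2 fold change of -0.66 ± 0.12 (SE) that did not pass the adjustment (limma, unadjusted p = 0.000485, adjusted p = 0.9998). Of 7 measured markers of glutamatergic neurons, 4 (Slc17a7, Camk2a, Neurod6 and Neurod2) had a probe set in the highest intensity class that could be recovered. That class held 27.3% of all probe sets, and genes with several probe sets had more chances to reach it. The arrays did not separate by genotype along the first principal component, and later components were not looked at. The first held 52.4% of the variance, and p300+/- 3 and Wild-type 2 stood together at 1 end of it, at 43.3 and 55.6, against -30.7 to -12.6 for the other arrays. The 7 measured choroid plexus markers averaged -2.57 in Wild-type 2 and between -0.17 and 0.33 in the others. The 7 glutamatergic markers averaged -0.39 in p300+/- 3 and -0.51 in Wild-type 2, against -0.067 to 0.19 elsewhere. The part of these array differences in the values below was not tested, and the values without both arrays are given with them.

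Across the set no difference between genotypes passed the test. Of the 15 probe sets, 11 had higher and 4 had lower means in p300+/- than in Wild-type pools, with a median log2 fold change of 0.080 and a range from -0.088 to 0.37. Over all probe sets the median was 0.0057 and 51.7% were higher. None of the 15 passed an adjusted p of 0.05 (limma, Benjamini-Hochberg over all probe sets, adjusted p = 0.9999 for each), where the share called over the array was 0.0%. None was below an unadjusted p of 0.05, where 1.22% of all probe sets lay. The arrays of the genotypes did not overlap in 1 of the 15, that of Calb2, against 5.39% of all probe sets. Averaged by gene, 7 of 8 genes were higher and Reln was lower, with a median of 0.10 against 0.019 over all genes, of which 57.6% were higher. The count of higher gene means ran from 5 to 8 as each array was left out in turn.

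**Figure D1:**
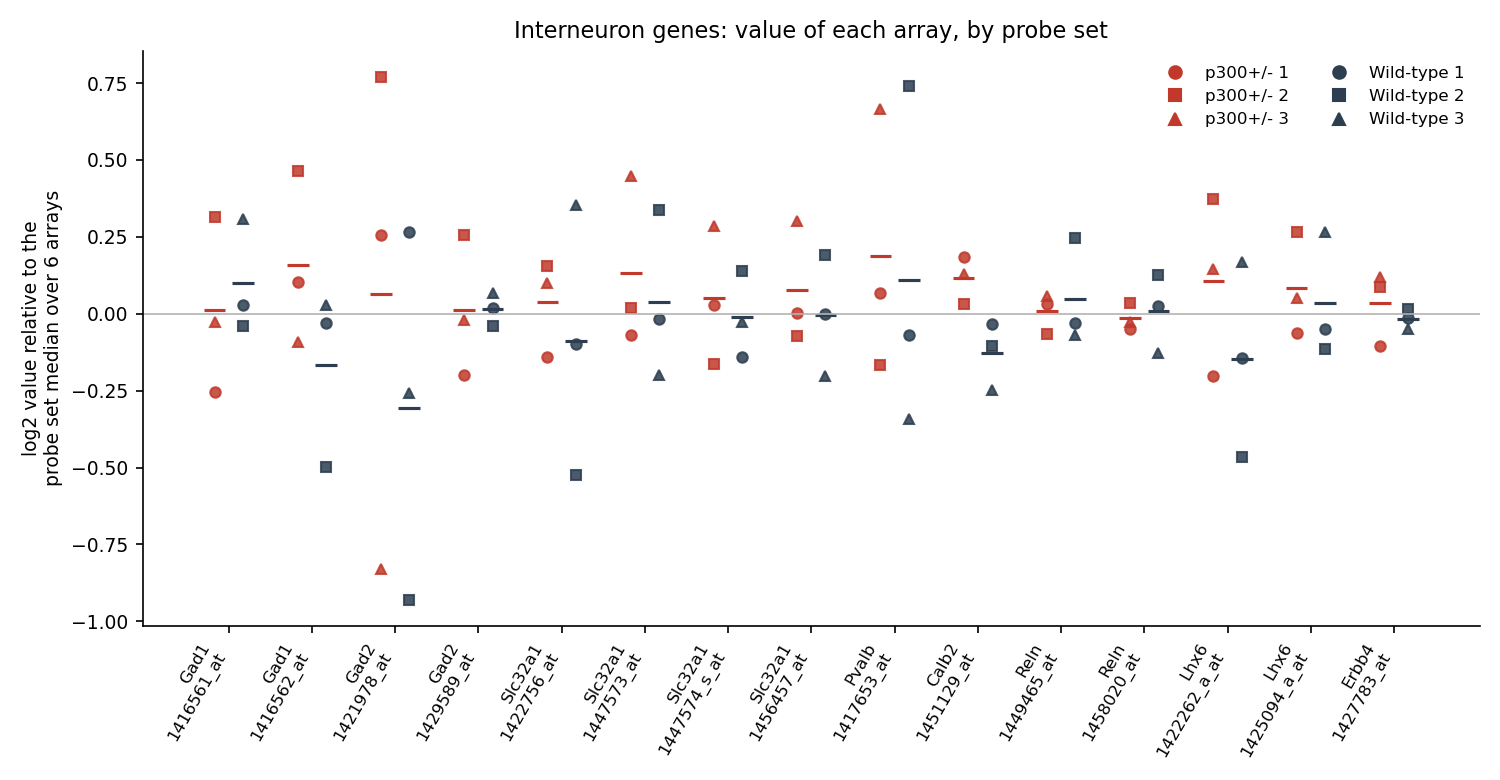
Log2 value of each array relative to the probe set's median over the 6 arrays (vertical axis) for the 15 probe sets (horizontal axis), with p300+/- in red, Wild-type in dark blue, the replicate number as the marker shape and the group mean as a short bar. The genotypes overlap in every probe set but that of Calb2, and Gad2 1421978_at spreads furthest, from -0.93 to 0.77.

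The GABA-making enzymes were read with little agreement between their probe sets. Gad1 encodes the decarboxylase that supplies most of the GABA of the cell. Its probe set 1416561_at was at -0.25, 0.32 and -0.028 in p300+/- 1, 2 and 3 and at 0.028, -0.041 and 0.31 in Wild-type 1, 2 and 3. The 2 highest arrays, p300+/- 2 and Wild-type 3, were of different genotypes. This gave a log2 fold change of -0.088 ± 0.18 (SE), with a 95% interval of -0.50 to 0.32, and it was 0.045 without p300+/- 1 and 0.017 without Wild-type 3. Without both p300+/- 3 and Wild-type 2 it was -0.14.

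The other Gad1 probe set, 1416562_at, was at 0.10, 0.46 and -0.090 in p300+/- and at -0.029, -0.50 and 0.029 in Wild-type arrays. Here p300+/- 2 was again the highest and Wild-type 2 the lowest, and the genotypes overlapped. The log2 fold change was 0.32 ± 0.20 (SE), or 1.25-fold with a 95% interval of 0.909 to 1.73 (unadjusted p = 0.143, limma). Without Wild-type 2 it was 0.16, and without both p300+/- 3 and Wild-type 2 it was 0.28. The mean of both Gad1 probe sets gave 0.12 ± 0.17, which was -0.034 without p300+/- 2.

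Gad2 encodes the decarboxylase concentrated at nerve terminals. Its probe set 1421978_at was at 0.26, 0.77 and -0.83 in p300+/- 1, 2 and 3 and at 0.27, -0.93 and -0.26 in Wild-type 1, 2 and 3. Both genotypes thus held 1 very low array, p300+/- 3 and Wild-type 2, and the spread within a genotype was larger than the difference between them. The log2 fold change of 0.37 ± 0.44 (SE) was the largest of the set and had the widest interval, -0.66 to 1.40. It was 0.020 without p300+/- 2, 0.82 without p300+/- 3 and 0.061 without Wild-type 2, and 0.51 without both low arrays.

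Gad2 1429589_at did not show those low arrays. Its values were -0.20, 0.26 and -0.020 in p300+/- and 0.020, -0.039 and 0.069 in Wild-type arrays. The 3 Wild-type arrays lay within 0.11 of each other, inside the p300+/- range. Its log2 fold change was -0.0043 ± 0.14 (SE), with a 95% interval of -0.34 to 0.33, and -0.016 without p300+/- 3 and Wild-type 2. The mean of both Gad2 probe sets was 0.18 ± 0.25, and -0.053 without p300+/- 2. In the coarse intensity classes recovered from the number format, this probe set was in the class from 8 to 16 and 1421978_at in that from 4 to 8. Both Gad1 probe sets were in the class from 8 to 16.

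Slc32a1 encodes the vesicular transporter that fills synaptic vesicles with GABA and glycine. All 4 of its probe sets were slightly higher in p300+/- means, at log2 fold changes of 0.13 ± 0.22, 0.093 ± 0.19, 0.060 ± 0.15 and 0.082 ± 0.16 (SE). The brightest, 1422756_at, was at -0.14, 0.16 and 0.099 in p300+/- and at -0.099, -0.52 and 0.35 in Wild-type arrays. Its lowest and highest arrays were both Wild-type, 2 and 3, and without Wild-type 2 its fold change turned to -0.089. Without both p300+/- 3 and Wild-type 2 it was -0.12.

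The 3 dimmer Slc32a1 probe sets showed another order of arrays. The probe set 1447573_at was at -0.070, 0.018 and 0.45 in p300+/- and at -0.018, 0.34 and -0.20 in Wild-type arrays. In 1456457_at and 1447574_s_at p300+/- 3 was also the highest array (0.30 and 0.29), followed by Wild-type 2 (0.19 and 0.14). Wild-type 2 was therefore the lowest array for the brightest Slc32a1 probe set and the second highest for the other three. Without p300+/- 3 the fold changes of the dimmer probe sets were -0.065, -0.058 and -0.031, in the order 1447573_at, 1447574_s_at and 1456457_at, and without Wild-type 3 the first and last of these were -0.027 and -0.017. The mean over all 4 was 0.091 ± 0.12 (SE) and -0.014 without p300+/- 3. Without both p300+/- 3 and Wild-type 2 the dimmer probe sets were at 0.083, 0.017 and 0.067, in the same order.

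The windows upstream of these 3 genes are shown because p300 is recruited by CREB, a factor that binds the cAMP response element, and because these genes define the GABA phenotype. The sequences are the 250 bases before the annotated start, 5′ to 3′, from RefSeq on GRCm38.p6. Capitals mark the half-site TGACG, read on either strand.
Gad1, chr2:70561879-70562128, plus strand: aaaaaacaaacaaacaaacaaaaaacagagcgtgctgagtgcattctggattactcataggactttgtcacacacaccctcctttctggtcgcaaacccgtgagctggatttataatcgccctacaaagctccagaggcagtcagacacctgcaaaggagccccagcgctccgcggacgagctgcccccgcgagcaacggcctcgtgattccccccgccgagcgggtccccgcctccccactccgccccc
Gad2, chr2:22622077-22622326, plus strand: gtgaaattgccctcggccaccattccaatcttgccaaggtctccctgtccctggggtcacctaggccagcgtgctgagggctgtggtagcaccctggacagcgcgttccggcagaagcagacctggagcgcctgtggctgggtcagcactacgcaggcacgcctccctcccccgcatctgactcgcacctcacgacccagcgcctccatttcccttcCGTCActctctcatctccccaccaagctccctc
Slc32a1, chr2:158610508-158610757, plus strand: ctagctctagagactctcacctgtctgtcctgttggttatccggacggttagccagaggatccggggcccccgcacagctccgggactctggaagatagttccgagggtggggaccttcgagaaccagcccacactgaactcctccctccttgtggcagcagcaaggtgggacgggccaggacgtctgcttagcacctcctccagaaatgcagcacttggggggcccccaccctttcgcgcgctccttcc
Over the whole window of 250 bases before and 50 after the start, the full element TGACGTCA was found on either strand in 1.79% of 32851 promoter windows and in none of the 10 windows of the 7 matched genes (Gad1, Gad2, Slc32a1, Pvalb, Reln, Lhx6 and Erbb4). The half-site TGACG, which also lies within the full element, was found in 20.8% of all windows. Among the 10 windows only that of Gad2 held it, on the minus strand, starting 33 bases before the start. These are matches of letters, and binding was not measured.

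Pvalb encodes parvalbumin, the calcium buffer of fast-spiking basket cells. Its probe set 1417653_at was at 0.069, -0.17 and 0.66 in p300+/- 1, 2 and 3 and at -0.069, 0.74 and -0.34 in Wild-type 1, 2 and 3. The 2 high arrays, p300+/- 3 and Wild-type 2, came from different genotypes and are those at 1 end of the first principal component. The genotypes differed by a log2 fold change of 0.080 ± 0.32 (SE), with a 95% interval of -0.66 to 0.82. It was -0.16 without p300+/- 3, -0.0096 without Wild-type 1, -0.15 without Wild-type 3 and 0.39 without Wild-type 2. Without both high arrays it was 0.16. Vip, the gene of a peptide of interneuron-selective cells, was chosen after its values were seen and had the same 2 arrays highest, at 0.88 in p300+/- 3 and 0.76 in Wild-type 2. Other interneuron subtype genes, also picked after their values were seen, had these 2 arrays lowest. Kit was at -0.41 in p300+/- 3 and -0.33 in Wild-type 2, and Nos1 at -0.35 and -0.49.

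Calb2 had the only probe set of the 15 in which all p300+/- arrays lay above all Wild-type arrays. Over the array, the genotypes did not overlap in 5.39% of probe sets, so 1 of 15 is near that share. Calb2 encodes calretinin, a calcium-binding protein of interneurons that contact other interneurons. Its probe set 1451129_at was at 0.18, 0.033 and 0.13 in p300+/- and at -0.033, -0.10 and -0.25 in Wild-type arrays. The means were 0.12 ± 0.077 and -0.13 ± 0.11 (SD, n = 3 each), and the closest arrays of opposite genotype, p300+/- 2 and Wild-type 1, were at 0.033 and -0.033. The log2 fold change was 0.24 ± 0.12 (SE), or 1.18-fold with a 95% interval of 0.981 to 1.43, and did not pass (limma, unadjusted p = 0.0711, adjusted p = 0.9999). It ran from 0.18 to 0.29 as single arrays were left out and was 0.25 without both p300+/- 3 and Wild-type 2.

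Calretinin is not particular to interneurons in the mouse hippocampus, since hilar mossy cells, young granule cells and Cajal-Retzius cells make it too, as does the thalamus next to the dissected tissue. Of 7 other markers of granule cell precursors and immature granule cells, 2 were higher and 5 lower in p300+/- means, with Neurog2 at -0.28 and Sox11 at -0.18. Of 3 other mossy cell markers 2 were higher, with Drd2 at 0.14 and Csf2rb2 at 0.041. Of 5 Cajal-Retzius markers 3 were higher, with Ebf3 at 0.22 and Lhx1 at -0.10. Of 6 thalamic markers apart from Calb2 and Pvalb 3 were higher, with Zic1 at 0.58 (unadjusted p = 0.0196, limma) and Prkcd at 0.23. The other 3 were lower, down to -0.19. As for Calb2, the p300+/- arrays lay above all Wild-type arrays in 1 of the 5 Cajal-Retzius markers (Ebf3) and 1 of the 6 thalamic markers (Prkcd). They lay below them in 1 of the 7 granule cell markers (Sox11), and the genotypes overlapped in all 3 mossy cell markers. Over all genes, 4.72% had genotypes that did not overlap. The mean of the 6 thalamic markers ran from -0.091 to 0.20 in p300+/- and from -0.068 to -0.017 in Wild-type arrays. None of these markers passed (limma, adjusted p = 0.9998 for each), and their part in the Calb2 value was not tested.

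Reln encodes reelin, a large secreted glycoprotein released by interneurons of the outer layers and by Cajal-Retzius cells. It was the only gene of the set with a lower mean in p300+/-. The probe set 1449465_at was at 0.030, -0.065 and 0.057 in p300+/- and at -0.030, 0.25 and -0.070 in Wild-type arrays. The dim probe set 1458020_at was at -0.049, 0.036 and -0.027, and at 0.027, 0.13 and -0.13. In both, Wild-type 2 was the highest and Wild-type 3 the lowest array, with the p300+/- arrays between them. The log2 fold changes were -0.041 ± 0.13 and -0.021 ± 0.12 (SE), and without Wild-type 2 they turned to 0.058 and 0.037. Without both p300+/- 3 and Wild-type 2 they were 0.033 and 0.044. With array weights the first was 0.016.

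Lhx6 encodes the LIM homeodomain factor that directs the migration and fate of parvalbumin and somatostatin interneurons. Its probe set 1422262_a_at was at -0.20, 0.37 and 0.15 in p300+/- and at -0.15, -0.47 and 0.17 in Wild-type arrays. The probe set 1425094_a_at was at -0.063, 0.26 and 0.051, and at -0.051, -0.11 and 0.27. Both had the same sign in each of the 6 arrays, with Wild-type 2 lowest in each. The log2 fold changes were 0.25 ± 0.21 and 0.050 ± 0.15 (SE), and without Wild-type 2 they were 0.094 and -0.024. Without p300+/- 2 the second was -0.040. Without both p300+/- 3 and Wild-type 2 they were 0.074 and -0.0070.

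Erbb4 encodes the neuregulin receptor tyrosine kinase through which interneurons receive and form synapses. Its only probe set here, 1427783_at, was in the lowest intensity class, from 2 to 4. It was at -0.10, 0.088 and 0.12 in p300+/- and at -0.014, 0.014 and -0.051 in Wild-type arrays. The Wild-type arrays lay within 0.066 of each other and inside the p300+/- range. The log2 fold change was 0.052 ± 0.11 (SE), with a 95% interval of -0.22 to 0.32, and it was 0.0088 without p300+/- 3 and 0.025 without both p300+/- 3 and Wild-type 2.

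**Figure D2:**
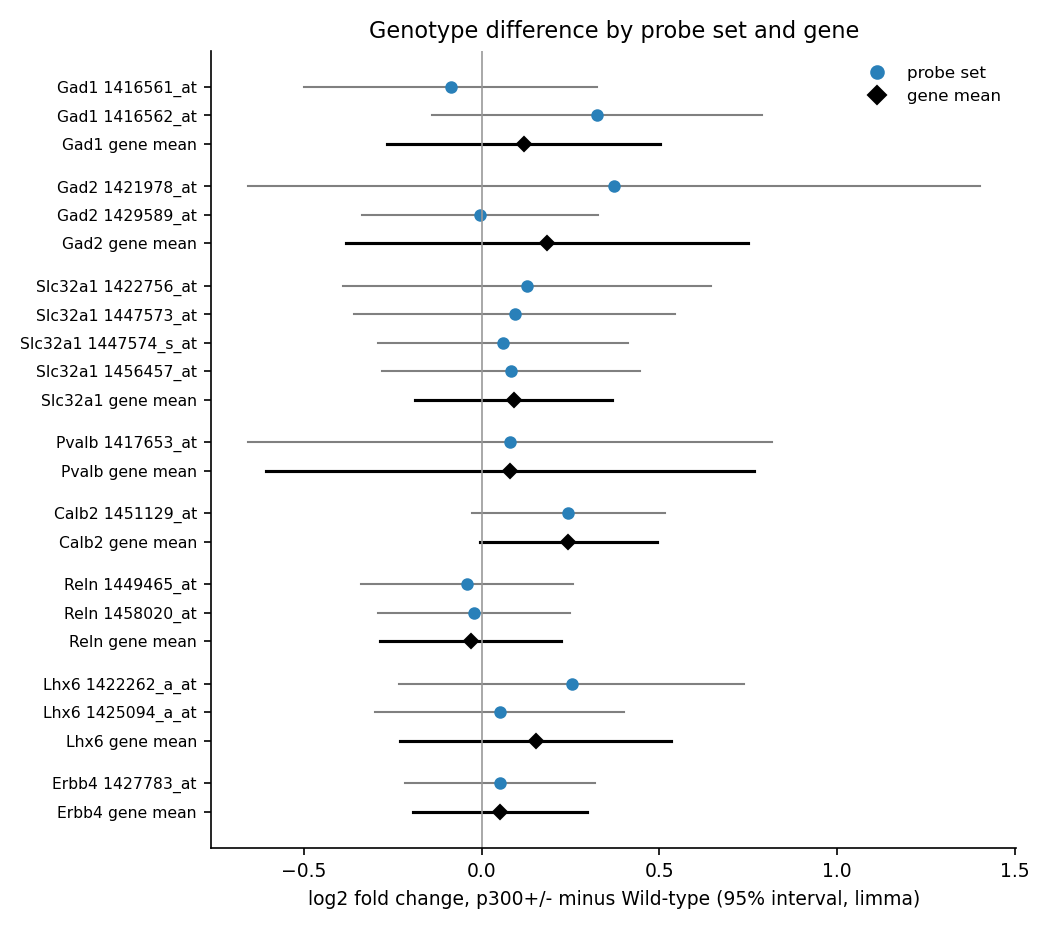
Log2 fold change, p300+/- minus Wild-type, with its 95% interval from limma (horizontal axis) for each probe set (blue circles) and for the mean over the probe sets of each gene (black diamonds). Every interval includes 0, that of the Calb2 gene mean by a narrow margin (-0.0046 to 0.49). Calb2 has 1 probe set, so its gene mean repeats the values of 1451129_at (-0.027 to 0.51). Only the spread that limma shares over the fit differs.

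The probe sets of a gene were compared with each other for the 5 genes that had more than 1. Direction was shared by all probe sets of Slc32a1, Reln and Lhx6 and split in Gad1 and Gad2. Among genes with exactly 2 probe sets, 2 of the 4 in this set shared direction, as did 51.8% of 4695 such genes on the array. Fold changes of a gene's probe sets lay up to 0.41 apart in Gad1, 0.38 in Gad2, 0.20 in Lhx6, 0.068 in Slc32a1 and 0.020 in Reln, against a median of 0.19 over 9010 genes with several probe sets.

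Array by array, the probe sets agreed in another order. The root mean square difference of log2 values over the 6 arrays was 0.086 for Reln, 0.17 for Lhx6, 0.27 for Gad1 and 0.59 for Gad2. This measure is small where values vary little, and the Reln probe sets spanned only 0.32 and 0.25 over the arrays. By sign, the probe sets matched in 6 of the 6 arrays for Lhx6, in 4 for Gad1 and Gad2, and in 2 for Reln. Within Slc32a1 it was 0.097 to 0.16 among the 3 dimmer probe sets and 0.35 to 0.45 between them and the brightest. The 4 Slc32a1 probe sets therefore gave close genotype differences from unlike array profiles. The difference of genotype effects between probe sets of a gene was tested in 10 pairs by an exact permutation test, two-sided, which with 3 against 3 arrays cannot go below p = 0.10. The smallest p was 0.20, for Gad1 (1.0 after adjustment over the 10 pairs).

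**Figure D3:**
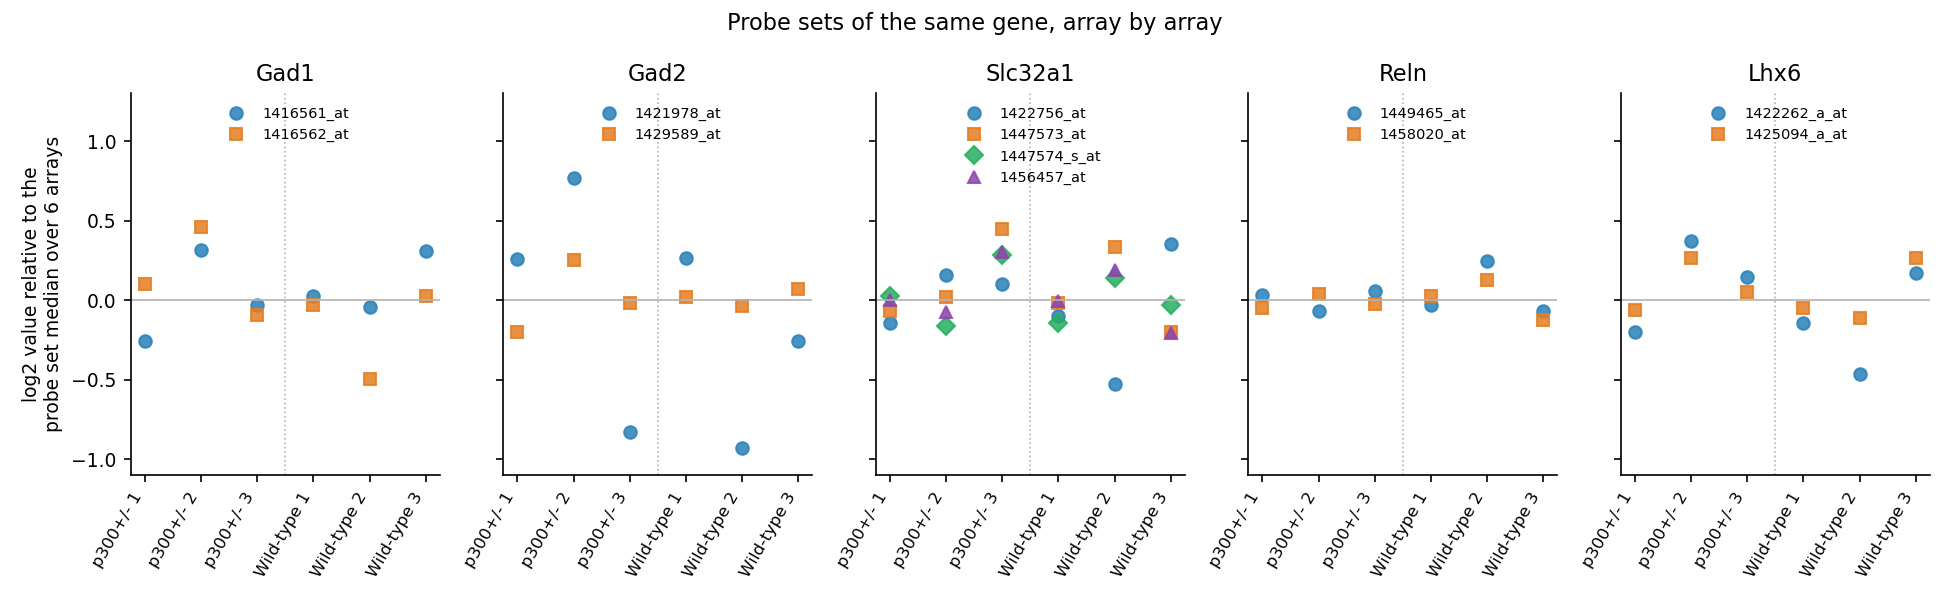
Log2 value relative to the probe set median (vertical axis) in each of the 6 arrays (horizontal axis, dotted line between genotypes) for the genes with more than 1 probe set. The points of Reln and Lhx6 lie close together, Gad2 parts most in p300+/- 3 and Wild-type 2, and Slc32a1 1422756_at parts from the other three in Wild-type 2 and Wild-type 3.

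The other genes around these pathways were counted on gene means, without the 8 genes themselves. None of them passed an adjusted p of 0.05 (limma), and the share called over all 18193 genes was 0.0%. None was below an unadjusted p of 0.05 either, where 0.94% of all genes lay. Of 7 genes for GABA synthesis, reuptake and breakdown 5 were higher, with a median of 0.070, among them Pdxk, which makes the cofactor of the decarboxylases, at 0.12 ± 0.098 (SE). Slc38a1, a glutamine transporter, was at -0.21 ± 0.14. Genotypes did not overlap in 1 of the 7, Pdxk, against 4.72% of all genes.

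Of 13 further interneuron transcription factors 5 were higher and 8 lower, with a median of -0.050. Dlx6, a homeobox gene of interneuron progenitors, was at -0.25 ± 0.12 and Maf at -0.18 ± 0.13 (SE), where Lhx6 was at 0.15 ± 0.17. Of 22 further subtype genes 12 were higher and 10 lower, with a median of 0.023. Chrna2, the nicotinic receptor subunit of oriens-lacunosum moleculare cells, was at 0.22 ± 0.11, and the fast potassium channel gene Kcnc2 at -0.21 ± 0.14. Genotypes did not overlap in 2 of these 22, against 4.72% of all genes. They were Chrna2, higher in p300+/-, and Calb1, lower at -0.18 and named after its values were seen. Somatostatin (Sst), which marks a large class of Lhx6 cells and was chosen after its values were seen, was at 0.10.

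Partners of reelin and ErbB4 were spread around 0. Of 8 further reelin pathway genes 3 were higher (median -0.021), with the reelin receptor gene Vldlr at -0.14 ± 0.11 and the kinase gene Fyn at -0.10 ± 0.11 (SE). Of 10 further genes of the ErbB4 and neuregulin pathway 4 were higher (median -0.015), with the ligand gene Nrg1 at -0.18 ± 0.13 and Dlg4, the postsynaptic scaffold that binds ErbB4, at 0.21 ± 0.18.

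**Figure D4:**
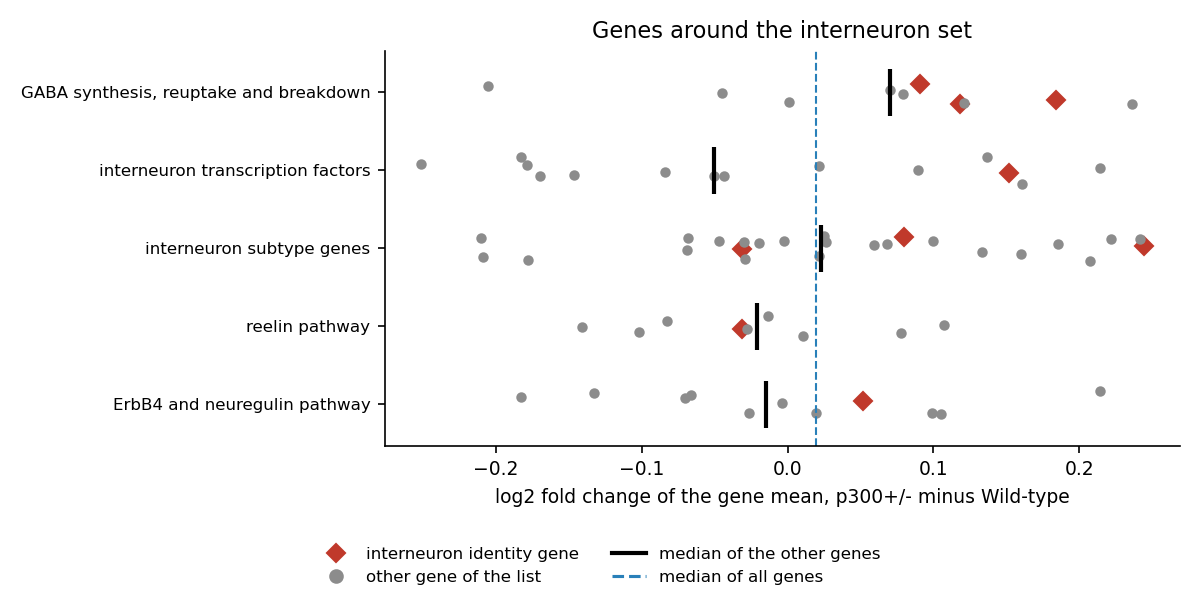
Log2 fold change of gene means, p300+/- minus Wild-type (horizontal axis), for the genes of 5 lists (rows), with the 8 interneuron identity genes as red diamonds, other genes as grey circles spread vertically at random, the median of the other genes as a black bar and the median of all genes, 0.019, as a dashed line. The other genes lie on both sides of 0 in every list, between -0.25 and 0.24.

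Markers of other cells that the tissue could hold were counted in the same way. Striatal projection neurons, which lie outside the hippocampus, also use Gad1, Gad2 and Slc32a1, and 4 of their 8 measured markers were higher and 4 lower (median -0.0043), with Rxrg at -0.22 and Gpr6 at -0.20. Of the 7 glutamatergic markers 4 were higher and 3 lower (median 0.069), with Neurod2 at 0.18 and Neurod6 at -0.20. All 7 choroid plexus markers were higher in p300+/- means (median 1.08), with Folr1 at 1.17 and Kl at 0.45, beside the low value of Wild-type 2 given above. Of 5 astrocyte markers 2 were higher, with Aqp4 at 0.13 and Gja1 at -0.052. Of 5 oligodendrocyte markers 4 were higher, with Mag at 0.23, and 1 was lower at -0.059. Of 5 microglia markers 3 were higher, with Tmem119 at 0.21 and Csf1r at 0.098, and 2 were lower, down to -0.14. Of 6 vascular markers 5 were higher, with Vtn at 0.24 and Pecam1 at 0.17, and 1 was lower at -0.16. None of these genes passed an adjusted p of 0.05 (limma), the smallest unadjusted p among those named by the rule being 0.0204 for Mobp, a myelin gene of oligodendrocytes, at 0.28 ± 0.099 (SE). Genotypes did not overlap in 1 of the 5 oligodendrocyte markers (Mobp), 1 of the 5 microglia markers (Csf1r) and 1 of the 6 vascular markers (Vtn). Each was higher in p300+/-. They overlapped in all 8 striatal, 7 glutamatergic, 7 choroid plexus and 5 astrocyte markers. Over all genes, 4.72% did not overlap. Some genes were counted in more than 1 list. Prox1 was also among the interneuron transcription factors, Penk among the subtype genes and Drd2 among the mossy cell markers. The part of these markers in the values of the 8 genes was not tested.

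The mean over the 8 genes was -0.011, 0.14 and 0.10 in p300+/- 1, 2 and 3 and -0.017, -0.022 and -0.058 in Wild-type 1, 2 and 3. The genotypes overlapped once each array was centred on its median, with p300+/- 1 at -0.017 and Wild-type 1 at -0.0037, and the single genes behind this mean put different arrays at their extremes. The profiles nearest to this mean among 16661 genes that varied at least as much over the 6 arrays were those of Qprt, Sntg1 and Dsg1a, at root mean square differences of 0.020, 0.024 and 0.025. How near unrelated profiles come in a search of this size was not tested, so no relation to the set can be read from them.

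**Figure D5:**
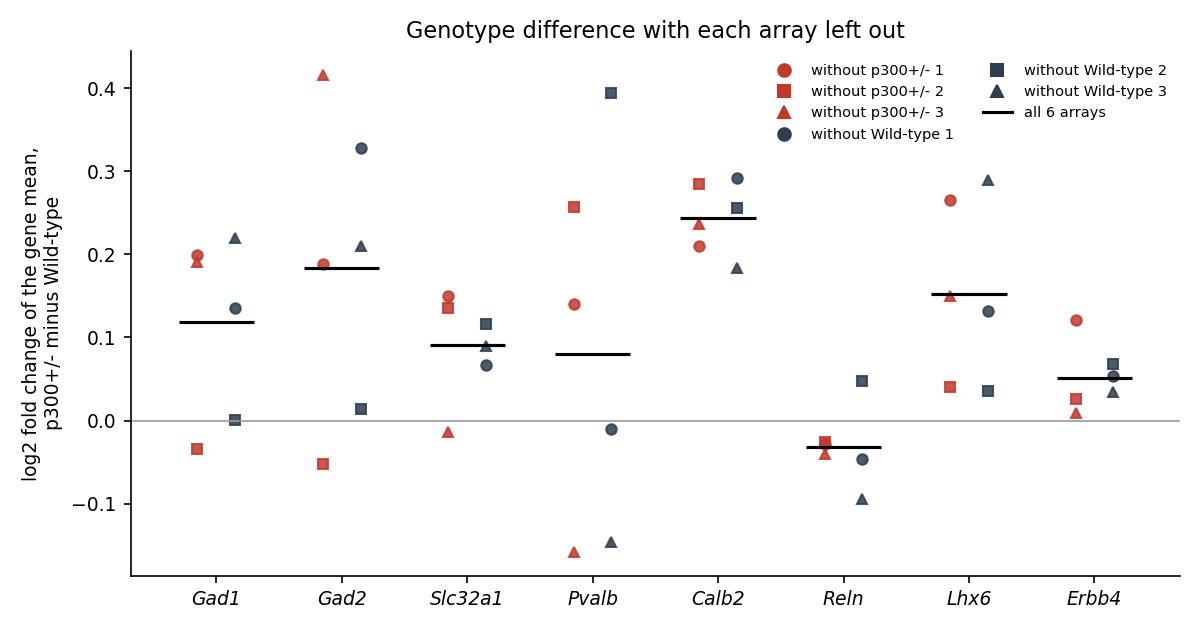
Log2 fold change of each gene mean (vertical axis) with all 6 arrays (black bar) and with each array left out (symbols, colour for the genotype and shape for the replicate of the array left out). Calb2, Lhx6 and Erbb4 stay above 0 throughout, whereas Pvalb runs from -0.16 to 0.39.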

How the data were processed

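The deposited table held log2 values for 45101 probe sets, made by the authors in GeneSpring GX, per the labels' protocols. The sources used here do not give the software version, how probes were summarized, how arrays were normalized or whether probe sets were filtered. Every tested probe set had a median of 0 over the 6 arrays (to within 1e-06), which leaves differences between arrays and no levels. No source states the base, which was taken as 2; folds depend on it and directions do not. Intensity classes (2 to 4, 4 to 8, 8 to 16, on the scale of the log values) were recovered from the binary steps of single-precision numbers and are approximate.

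The 64 control probe sets were dropped. In the platform annotation 34945 of the rest carried 1 symbol, 932 several and 9160 none. Symbols were updated by gene identifier to RefSeq (GRCm38.p6), which 34741 matched. Genes without a single-gene probe set were not analysed. Promoter windows were matched by symbol for 7 of 8 genes.

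Limma 3.58.1 in R 4.3.3 (lmFit, eBayes) was fitted on all 6 arrays without covariates, with p-values two-sided and adjusted by Benjamini-Hochberg over all 45037 probe sets or 18193 gene means, and checked on simulated data. The simulated noise was independent between probe sets and arrays. It lacked the structure that p300+/- 3 and Wild-type 2 share, so the check cannot show how the fit handles that structure. The median SE was 0.15 per probe set, and the number of arrays limits precision. The labels call the 3 pools of a genotype biological replicates. The planned filter on level used the intensity classes. From each further list the 2 genes with the smallest p were named, and others are marked where they appear. The members and lists were chosen with earlier results of these data known.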

Additional observations from a re-analysis of the deposited data

How the results depend on the processing

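None of the 15 probe sets and 8 gene means passed under any of 18 alternatives (limma, smallest adjusted p = 0.945), nor did any probe set or gene on the array. Of 371 values 34 changed sign, 15 of the 23 differences at least once and 26 of the 34 with 1 array left out. Among the 371 are values whose sign was fixed: those with the replicate block, the looser threshold of 0.1 or trend and robust moderation. The same holds for probe sets kept when others were dropped. Pvalb, Calb2 and Erbb4 were counted both as a probe set and as a gene mean. The share of 34 in 371 is therefore no measure of stability. As single arrays were left out, fold changes ran from -0.24 to 0.045 for Gad1 1416561_at, -0.13 to 0.10 for Gad2 1429589_at, -0.089 to 0.35 for Slc32a1 1422756_at, -0.065 to 0.24 for 1447573_at, -0.058 to 0.17 for 1447574_s_at and -0.031 to 0.18 for 1456457_at. They ran from -0.16 to 0.39 for Pvalb, -0.10 to 0.058 and -0.089 to 0.037 for Reln 1449465_at and 1458020_at, and -0.040 to 0.17 for Lhx6 1425094_a_at. Gene means ran from -0.034 to 0.22 for Gad1, -0.053 to 0.42 for Gad2, -0.014 to 0.15 for Slc32a1, -0.16 to 0.39 for Pvalb and -0.095 to 0.047 for Reln. The count of probe sets with higher values ran from 8 to 13. With array weights, which gave p300+/- 3 and Wild-type 2 the least weight, Reln 1449465_at was at 0.016 and the Reln mean at 0.00022. With the first probe set of each gene, Gad1 was at -0.088. Without p300+/- 3 and Wild-type 2, an alternative chosen after seeing the data, Slc32a1 1422756_at was at -0.12, Lhx6 1425094_a_at at -0.0070, Reln 1449465_at at 0.033, 1458020_at at 0.044 and the Reln mean at 0.038. For the gene values that turned with an array, the cause was not tested. Quantile normalization, median centring of arrays and limited values turned no sign. Trend and robust moderation cannot change a fold change. The filter on intensity classes and the omission of probe sets that bind several transcripts can change only the means of genes that lose a probe set. None of those means turned. Same-numbered arrays' deviations from their genotype mean correlated at 0.609, -0.230 and -0.468 over probe sets, and those of p300+/- 3 and Wild-type 2 at 0.648. Whether same-numbered arrays were handled together was not tested. With the replicate number as a block, fold changes cannot move, because each block holds 1 array of each genotype. The unadjusted p of Calb2 1451129_at was then 0.108, against 0.0711 without the block (limma). With this block 0 of 15 probe sets passed (limma, adjusted p = 0.9999). Over the settings, the main one included, the unadjusted p of Calb2 1451129_at ran from 0.0682 to 0.199 (limma). For the Calb2 gene mean, which holds the same values, it ran from 0.0495 to 0.169 (limma). The intensity over background was not held in the deposited values, so the dimmest probe sets (Erbb4, Reln 1458020_at and Lhx6 1422262_a_at) could not be set against it.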
